A study of Homo sapiens with 20 samples.

Results

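The endoplasmic reticulum (ER) chaperone and quality control module examined here consists of 38 genes, listed by symbol and matched to their Ensembl identifiers, out of 57736 gene identifiers in the drug arm of the study and 53150 genes summed in the excision arm. All 38 genes were found, and all 38 passed the filter on low counts in both arms, where 19224 and 21284 genes were tested. RNA-seq was done on K562, a human erythroleukemia cell line, in 20 libraries that form 10 groups of 2 biological replicates. In the drug arm (12 libraries) cells received the vehicle DMSO for 72 h, 5 uM GSK343 (an inhibitor of the histone methyltransferase EZH2) for 72 h, 100 uM X5050 (an inhibitor of the transcriptional repressor REST) for 72 h, or both drugs at these doses for 8, 24 or 72 h. DMSO was given at 72 h only, so the 8 h and 24 h groups have no vehicle control of their own time. In the excision arm (8 libraries) the groups are empty vector cells (EV), cells with CRISPR excision of silencer 1 (S1KO), of silencer 2 (S2KO), or of both (DKO). The labels do not say how many clones stand behind an excision group.

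Proteins that enter the secretory pathway pass through the translocon into the ER lumen, where HSP70, HSP90 and lectin chaperones hold them while disulfide isomerases and oxidases join their cysteines. Chains that fail to fold are sent back across the membrane and degraded by the proteasome, a route called ER-associated degradation. When unfolded proteins build up, the membrane sensors ATF6, IRE1 (encoded by ERN1) and PERK (encoded by EIF2AK3) start the unfolded protein response: ATF6 is cut to release a transcription factor, IRE1 removes a short intron from XBP1 mRNA, and PERK slows translation and raises ATF4.

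Many promoters of this system carry the ER stress element, read by ATF6 with the factor NF-Y, and it is shown first as a description. The genes were listed as parts of this system, so the frequency of the element among them is not an independent result. The element was searched as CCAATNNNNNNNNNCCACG on both strands in the 250 bases before the RefSeq gene start (GRCh38.p14), where 34 of the 38 genes had an entry. It was present in 7 of 34 (20.6%), against 22 of 27305 promoters in all (0.0806%). The type II form, ATTGGNCCACG, was present in 3 of 34 (8.82%), against 14 of all promoters (0.0513%). The single boxes are common and lie inside both elements: CCACG was found in 64.7% of the genes' promoters and 33.3% of all, and CCAAT in 79.4% and 33.0%. The XBP1 element TGACGTGG occurred in 1 of the genes (HYOU1, where it overlaps a type II element) and in 0.667% of all promoters. The ATF4 composite site TGATGCAA also occurred in 1 (HERPUD1) and in 0.82% of all. Members with either form of the element are HSPA5, HSP90B1, HYOU1, CALR, CANX, ERO1B, SDF2L1, CRELD2, XBP1 and HERPUD1. Examples follow 5′ to 3′ on the strand of the gene, with capitals for the CCAAT and CCACG boxes or their reverse complements ATTGG and CGTGG.
HSPA5 (chr9:125241381-125241419, minus strand): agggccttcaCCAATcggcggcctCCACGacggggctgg
CALR (chr19:12938374-12938412, plus strand): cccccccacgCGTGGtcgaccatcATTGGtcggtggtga
CANX (chr5:179698768-179698806, plus strand): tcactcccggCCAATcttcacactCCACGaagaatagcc
CRELD2 (chr22:49918544-49918582, plus strand): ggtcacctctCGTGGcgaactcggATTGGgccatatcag
XBP1 (chr22:28800593-28800631, minus strand): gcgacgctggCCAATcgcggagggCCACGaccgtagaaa
HERPUD1 (chr16:56932015-56932045, plus strand): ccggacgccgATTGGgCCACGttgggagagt
SDF2L1 (chr22:21642104-21642134, plus strand): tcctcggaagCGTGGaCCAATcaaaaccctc
A match describes these letters in this window and is not a measured binding site.

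The drug arm held 22925617 to 38177320 reads on the genes' strand per library, and the excision arm 55913561 to 98507788 estimated counts per library. Levels are given as CPM (counts scaled to the library total) of the effective library size unless TPM, which is also per length, is named. A gene is called where the adjusted p of edgeR's quasi-likelihood test, over all genes of an arm, is under 0.05. Folds are log2 differences, given with the standard error (SE) for the genes described in full, and 2 libraries stand behind each group. The share of reads that mapped to several places was 10.8% to 13.3% in the 8 h and 24 h combination libraries, 19.0% to 20.8% in the DMSO and single-drug libraries and 26.1% to 26.7% in the 72 h combination libraries; its part in the results was not tested. EZH2 mRNA lay at 163 and 122 CPM with DMSO and at 141 and 114 with GSK343, and REST mRNA at 53.1 and 68.3 with DMSO and at 74.6 and 79.3 with X5050; since both drugs act on the proteins, these levels do not check the labels. The 11 K562 erythroid markers were all detected. The 4 markers of plasma cells, which carry much of this machinery, summed to at most 0.839 CPM in any library, and IGKC was at 0 in all 20.

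Replicates of 1 group were not equally close. In the second DMSO library 30 of the 38 genes were above the first, 9 of them by more than 1.5-fold, while 4.58% of all tested genes were. HSPA5 (ENSG00000044574), the ER HSP70 known as BiP, was at 1407 and 2397 CPM in the 2 DMSO libraries, and HSP90B1, its HSP90 partner, at 787 and 1563. The cytosolic heat shock gene HSPA1A was also higher in the second library, at 46.9 and 312 CPM. In the first X5050 library 33 of the 38 genes were below the second, 5 of them by more than 1.5-fold, while 5.62% of all tested genes were. The summed erythroid markers were at 6096 CPM in the first X5050 library against 3061 in the second. Whether these 2 libraries differ in handling was not tested, and the module counts of the comparisons they enter are also given without them. All 5 comparisons with DMSO share the DMSO libraries.

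The combination at 72 h lowered most of the module. Of 38 genes, 25 fell and 2 rose against DMSO, while 36.4% of all tested genes were called (17.3% lower, 19.2% higher). The median of the module was -0.65 on the log2 scale and that of all tested genes 0.01. Without the second DMSO library 24 fell and 2 rose, with a median of -0.49. The 11 erythroid markers summed to 2384 and 2556 CPM with DMSO and to 6069 and 4759 with the combination; their part in the result was not tested, and in bulk RNA fewer cells of a type and less RNA per cell cannot be told apart. With each of the libraries of both groups left out in turn, 19 of the 25 falls and 1 of the 2 rises were called every time.

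All 5 lumenal or membrane chaperones fell at 72 h of the combination (median -1.21). HSPA5 was at 857 and 782 CPM, below both DMSO libraries, a change of -1.21 (SE 0.22, adjusted p = 0.00136, edgeR). HYOU1, an HSP70 relative that serves BiP, went from 801 and 858 CPM with DMSO to 319 and 368, a change of -1.27 (SE 0.13, adjusted p = 2.82e-06, edgeR). CANX (ENSG00000127022), the membrane lectin chaperone calnexin, went from 1604 and 1951 CPM to 988 and 1021 (-0.82, SE 0.11, adjusted p = 2.66e-05, edgeR). None of these groups overlapped. HSP90B1 fell by 1.25 and CALR, the soluble lectin chaperone calreticulin, by 0.92. Without the second DMSO library the changes were smaller in HSPA5 (-0.79), HSP90B1 (-0.68) and CALR (-0.31), and each was still called.

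Of the 7 disulfide isomerases and oxidases 5 fell (median -0.75) and none rose. PDIA6, an isomerase that works beside BiP, was at 351 and 539 CPM with DMSO and at 214 and 247 with the combination (-0.95, SE 0.16, adjusted p = 0.000209, edgeR). PDIA3, PDIA4, P4HB and the oxidase ERO1B also fell, by 0.52 (P4HB) to 1.03 (ERO1B). ERO1A, the other ER oxidase, stood at 107 and 131 CPM against 90.2 and 100.4 and was not called, and neither was TXNDC5. TXNDC5 shares exons on its strand with the read-through gene BLOC1S5-TXNDC5, so its level of 2.2 to 6.69 CPM in this arm is uncertain.

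Among the 6 J proteins and small cofactors 5 fell (median -0.88). DNAJB11, a BiP co-chaperone, went from 74.0 and 99.9 CPM to 46.0 and 45.4 (-0.93, SE 0.13, adjusted p = 6.1e-05, edgeR). MANF, a secreted factor that binds BiP, fell by 1.28, SDF2L1, a partner of DNAJB11, by 0.93, CRELD2 by 0.84, and DNAJC3 by 0.65. Without the second DMSO library the changes were -0.65 in MANF and -0.36 in SDF2L1, and DNAJC3 was no longer called at -0.19. DNAJB9, another BiP co-chaperone, was at 36.3 and 48.9 CPM with DMSO and at 56.4 and 52.4 with the combination, a difference that was not called (adjusted p = 0.0741, edgeR).

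All 3 sensors and factors fell. ATF6 went from 197 and 223 CPM to 107 and 110 (-0.95, SE 0.12, adjusted p = 1.18e-05, edgeR). ERN1 went from 123 and 132 CPM to 64.3 and 60.7 (-1.03, SE 0.20, adjusted p = 0.00143, edgeR). XBP1 (ENSG00000100219) changed least of the 3, from 148 and 181 CPM to 131 and 132 (-0.33, SE 0.12, adjusted p = 0.0474, edgeR), and was the called gene nearest the threshold. HERPUD1 lay just outside it at -0.51 (SE 0.20, adjusted p = 0.0593, edgeR).

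The 11 quality control and degradation genes split: 4 fell, 2 rose and 5 were not called, with a median of 0.04. DERL3, a derlin of the degradation channel, showed the largest fall of the module, from 15.2 and 12.6 CPM to 3.02 and 3.01 (-2.20, SE 0.23, adjusted p = 2.32e-06, edgeR). SEL1L (ENSG00000071537), the scaffold of the HRD1 ubiquitin ligase, went from 237 and 246 CPM to 90.5 and 82.7 (-1.48, SE 0.20, adjusted p = 6.35e-05, edgeR). UGGT1, the glucosyltransferase that senses folding, and OS9, a lectin of the degradation route, fell by 0.56 and 0.57. SYVN1, the HRD1 ligase that SEL1L holds, was not called, at 94.9 and 99.7 CPM against 104 and 102. DERL1 rose by 0.45, in both libraries above both DMSO libraries, and EDEM1, a mannosidase-like protein that marks chains for degradation, by 0.40. DERL1 was called with every library left out in turn and EDEM1 was not. Of the 6 translocon and coat genes 3 fell: SSR1, a translocon-associated subunit, from 476 and 561 CPM to 272 and 286 (-0.89, SE 0.12, adjusted p = 2.35e-05, edgeR), SSR2 by 0.59 and SEC61B by 0.44. SSR1, SYVN1 and DNAJB11 overlap other genes on the same strand (CAGE1 for SSR1, FAU for SYVN1), so their counts may be partial. The channel subunit SEC61A1 was at 420 and 398 against 351 and 357 CPM and was not called.

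**Figure D1:**
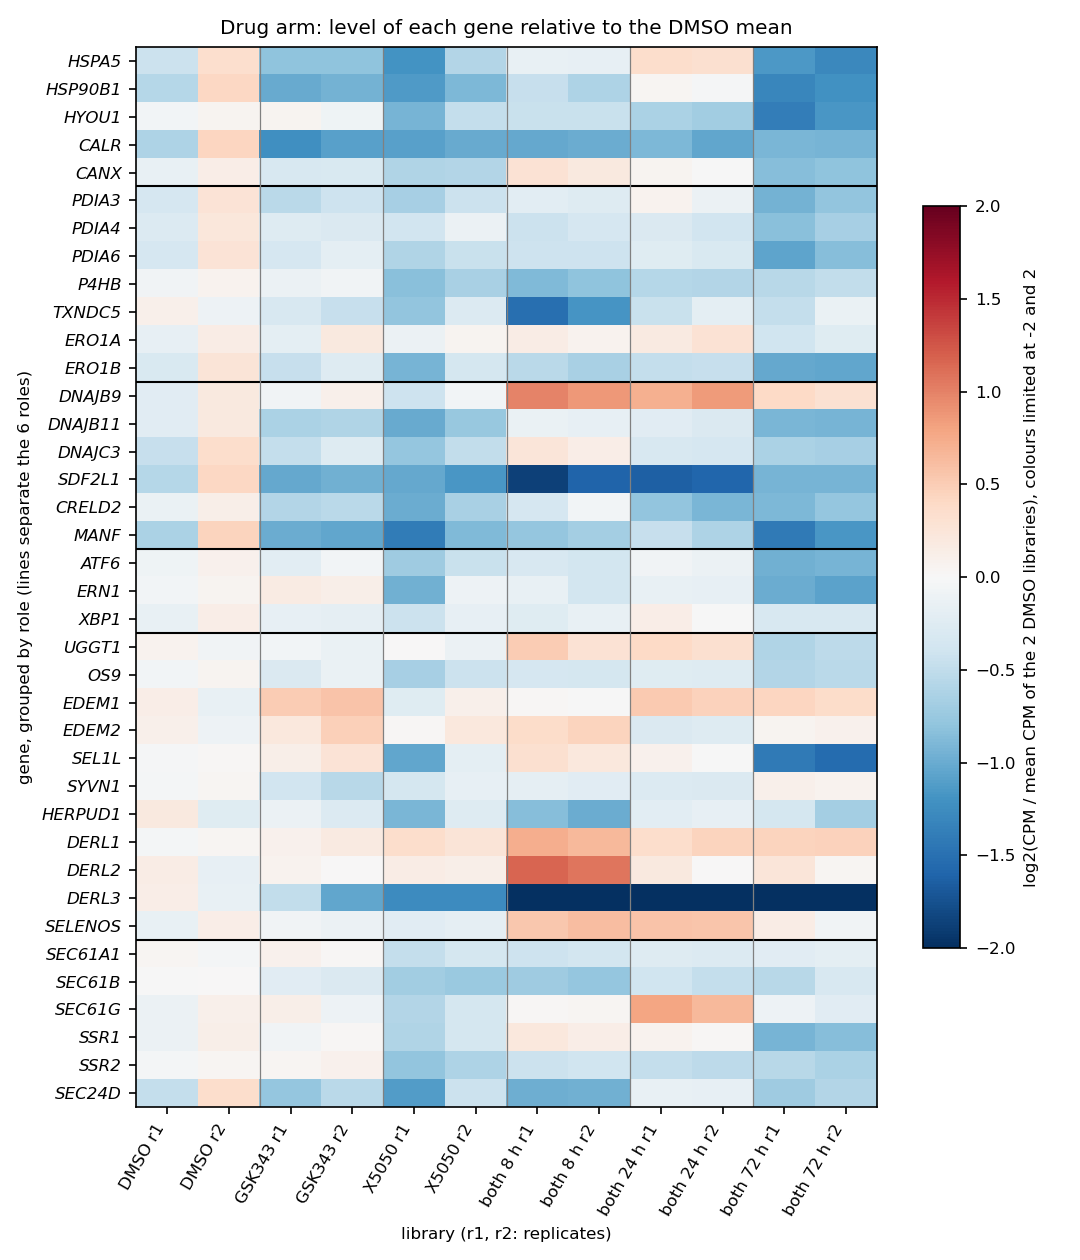
Level of each of the 38 genes (rows, grouped by role) in the 12 drug arm libraries (columns), as log2 of its CPM over the mean CPM of the 2 DMSO libraries, with blue lower and red higher. The 72 h combination columns are blue in most rows, with exceptions in the quality control group and DNAJB9, and HSPA5 in the DMSO columns spans 1407 to 2397 CPM.

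Members with an ER stress element and members without one both fell at 72 h of the combination: 9 of 10 with a median of -0.92, and 14 of 24 with a median of -0.54, beside 17.3% of all tested genes. None of the 10 rose, and 1 of the 24 did, beside 19.2% of all tested genes. With X5050 the counts of falls were 8 of 10 (median -0.75) and 11 of 24 (median -0.47), beside 7.23% of all tested genes. With GSK343 they were 5 of 10 (median -0.46) and 3 of 24 (median -0.10), beside 3.31%. HSPA5, HSP90B1 and CALR, which carry an element, had DMSO pairs of 1407 and 2397, 787 and 1563, and 857 and 1762 CPM. Without the second DMSO library their changes with GSK343 were -0.36, -0.40 and -0.54, smaller in size than with both DMSO libraries. The difference between the promoter classes was not tested.

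X5050 alone at 72 h lowered 21 of the 38 genes and raised none, while 12.6% of all tested genes were called (7.23% lower, 5.34% higher). The module median was -0.54, and all 5 chaperones, 5 of 6 translocon and coat genes, 4 of 6 cofactors, 4 of 7 isomerases and oxidases, 1 of 3 sensors and 2 of 11 quality control genes fell. P4HB, an abundant disulfide isomerase, went from 1104 and 1220 CPM with DMSO to 651 and 745 (-0.74, SE 0.11, adjusted p = 0.000444, edgeR). SSR2 went from 220 and 230 CPM to 130 and 147 (-0.70, SE 0.10, adjusted p = 0.000505, edgeR). The 2 groups stood clearly apart in both genes. DNAJB11 was at 43.1 and 51.4 CPM with X5050 (-0.88, SE 0.13, adjusted p = 0.000676, edgeR), SEC61B at 40.6 and 39.2 against 65.7 and 66.1 (-0.72, SE 0.11, adjusted p = 0.000737, edgeR), and DERL3 at 5.80 and 5.81 (-1.26, SE 0.22, adjusted p = 0.00154, edgeR).

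CANX was at 1175 and 1184 CPM with X5050 (-0.59, SE 0.11, adjusted p = 0.00253, edgeR), below both DMSO libraries. Those 6 genes (P4HB, SSR2, DNAJB11, SEC61B, DERL3 and CANX) were the ones called with every library left out in turn, and also the 6 called without the first X5050 library; without the second DMSO library 14 were called. HYOU1 was at 437.5 and 596.7 CPM (-0.68, SE 0.13, adjusted p = 0.00373, edgeR), CRELD2 at 11.5 and 14.6 (-0.81, SE 0.16, adjusted p = 0.00461, edgeR) and ATF6 at 128.5 and 154.4 (-0.57, SE 0.12, adjusted p = 0.00486, edgeR), each below both DMSO libraries. HSPA5 was at 834 and 1266 CPM with X5050, both below the DMSO pair (-0.86, SE 0.22, adjusted p = 0.029, edgeR). ERN1 was at 65.3 and 119 CPM, and neither it (adjusted p = 0.152) nor XBP1 (122 and 146 CPM, adjusted p = 0.131, edgeR) was called. Nearest the threshold were ERO1B inside it (adjusted p = 0.045) and DNAJC3 outside it (adjusted p = 0.0557, edgeR).

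GSK343 alone at 72 h lowered 9 genes and raised 1, while 12.4% of all tested genes were called (3.31% lower, 9.12% higher). The falls lay in 3 of 5 chaperones, 4 of 6 cofactors and 2 of 11 quality control genes, and no isomerase, oxidase, sensor, translocon or coat gene was called. CALR was at 558 and 619 CPM against 857 and 1762 with DMSO (-1.15, SE 0.24, adjusted p = 0.0117, edgeR). SDF2L1 was at 116 and 122 CPM against 159 and 315 (-0.99, SE 0.24, adjusted p = 0.0199, edgeR), and HSP90B1 at 584 and 611 CPM (-0.98, SE 0.24, adjusted p = 0.021, edgeR). Both GSK343 libraries were below both DMSO libraries in these genes, but the second DMSO library stood far above the first. HSPA5 was at 1094 and 1093 CPM (-0.80, SE 0.22, adjusted p = 0.0389, edgeR).

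SYVN1 was at 74.4 and 66.3 CPM with GSK343 (-0.47, SE 0.11, adjusted p = 0.00979, edgeR) and DNAJB11 at 56.4 and 57.3 (-0.61, SE 0.13, adjusted p = 0.00662, edgeR). DERL3 was at 9.88 and 6.76 CPM (-0.74, SE 0.21, adjusted p = 0.0303, edgeR) and CRELD2 at 15.3 and 15.7 (-0.56, SE 0.16, adjusted p = 0.0329, edgeR). EDEM1 rose from 212 and 176 CPM to 275 and 287 (0.54, SE 0.12, adjusted p = 0.01, edgeR). ATF6 (182 and 203 CPM), ERN1 (143 and 138) and XBP1 (146 and 145) were not called, with adjusted p of 0.542, 0.712 and 0.394 in edgeR. MANF was the called gene nearest the threshold (adjusted p = 0.0462) and PDIA3 the nearest uncalled one (adjusted p = 0.0636, edgeR). The count depended on single libraries: 17 genes were called without the first DMSO library, 3 without the second (CALR, DERL3 and SYVN1), 4 without the first GSK343 library and 1 without the second, and no gene was called each time. Without the second DMSO library the module median was -0.04, and HSPA5 stood at -0.36 (adjusted p = 0.27, edgeR).

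**Figure D2:**
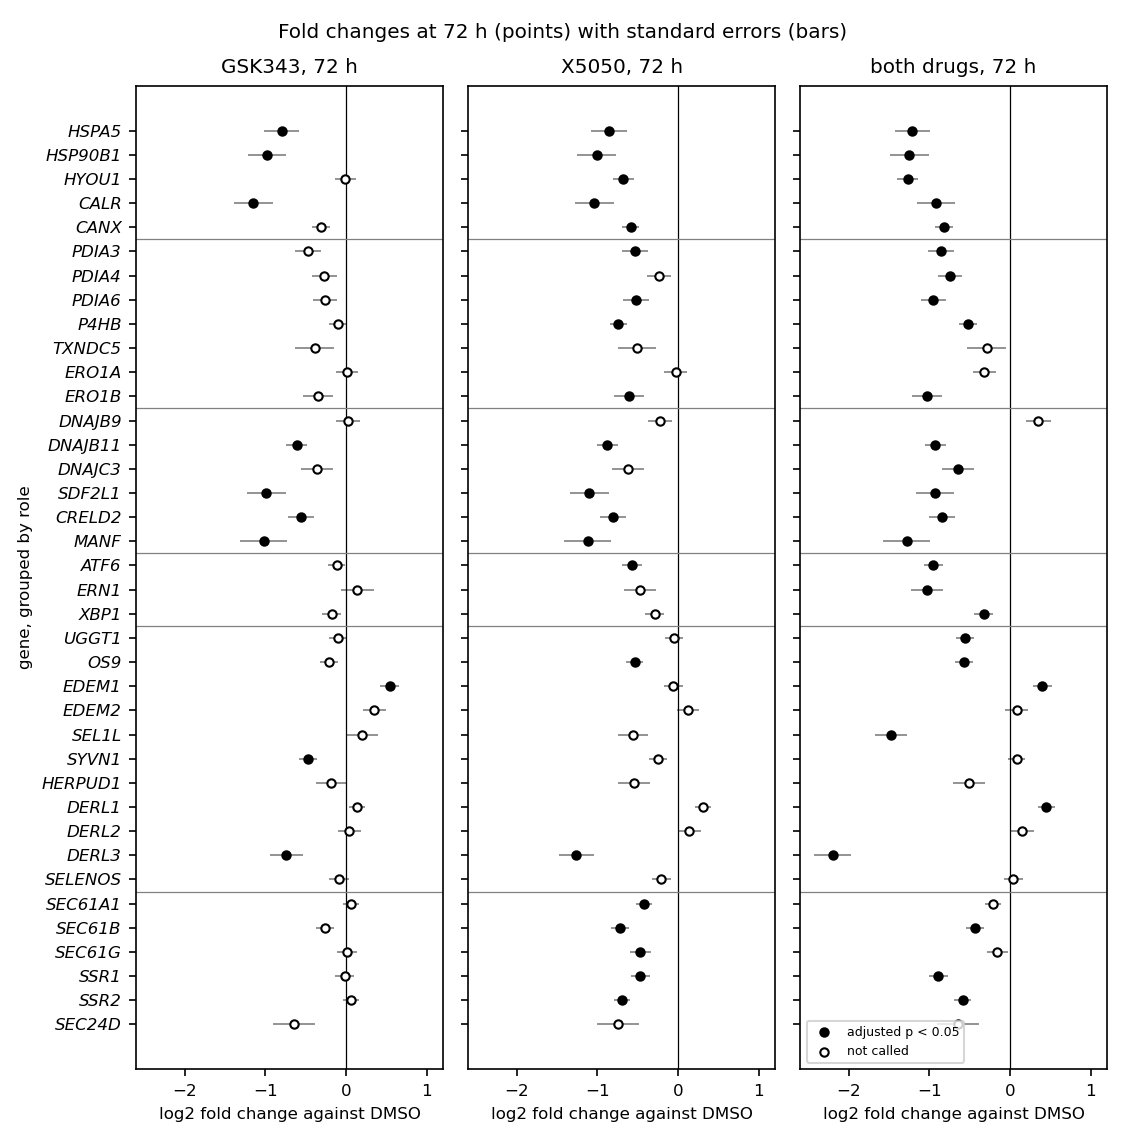
Log2 fold change against DMSO at 72 h for each of the 38 genes (rows, grouped by role) in 3 panels, GSK343, X5050 and both drugs; points are fitted values, bars their standard errors, and filled points passed an adjusted p of 0.05. Filled points number 10, 21 and 27, and DERL3 reaches -2.20 with both drugs.

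Direct comparisons of the 72 h treatments placed the combination lower than GSK343 in more genes than lower than X5050, as among all tested genes. Against GSK343 alone 15 of 38 genes were lower with both drugs and 2 higher. Of all tested genes 39.4% were called (20.5% lower, 18.9% higher). SEL1L (262 and 292 CPM with GSK343) differed most, by -1.68 (SE 0.20, adjusted p = 2.36e-05, edgeR), then DERL3 (-1.46) and HYOU1 (-1.26). Against X5050 alone 9 were lower and 3 higher, and the module median was -0.03. Of all tested genes 30.3% were called (12.8% lower, 17.5% higher). SEL1L, at 118 and 211 CPM with X5050, was lower by 0.92 with both drugs (adjusted p = 0.00286, edgeR), and DERL3 by 0.94; UGGT1 was the other gene called with every library left out. Without the first X5050 library 0 were higher and 11 lower. The count was 7 without the second X5050 library and 3 without the first 72 h combination library. X5050 against GSK343 gave 12 lower and 0 higher, with 21.1% of all tested genes called (14.3% lower, 6.85% higher); at an unadjusted p under 0.05 no gene was higher and 14 were lower, and DESeq2 called 0 higher and 11 lower. Those 12 included 5 of 6 translocon and coat genes, such as SSR2 (-0.77, SE 0.10, adjusted p = 9.6e-05, edgeR). The count was 6 and 3 without the first and second GSK343 library and 2 without the first X5050 library, and with a GC trend removed 3 were higher and 4 lower.

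The difference between the effect of X5050 with GSK343 present and its effect without it was tested as an interaction. It was called in 7 of 38 genes, 5 positive and 2 negative, while 18.8% of all tested genes were called (9.75% positive, 9.04% negative). SYVN1 gave 0.81 (SE 0.15, adjusted p = 0.00198, edgeR), and it alone was called with each library left out. SEL1L gave -1.12 (SE 0.27, adjusted p = 0.0121, edgeR): its 4 group means in CPM were 241 (DMSO), 277 (GSK343), 164 (X5050) and 86.6 (both). CALR gave 1.28, SDF2L1 1.16, DNAJB11 0.57, SEC61B 0.54 and HYOU1 -0.58. CALR was at 690 to 698 CPM with both drugs, above the 617 and 654 with X5050 and the 558 and 619 with GSK343. The split toward positive values did not hold without the libraries that stand apart: 4 were positive and 4 negative without the second DMSO library, and 1 was positive and 4 negative without the first X5050 library. The count was 13 without the first DMSO library (12 positive, 1 negative), 2 and 3 without the first and second GSK343 library, and 3 and 1 without the first and second combination library; DESeq2 called 4 positive and 5 negative.

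The combination lowered fewer genes of the module at 8 h and 24 h than at 72 h. At 8 h 16 of 38 genes were lower than DMSO and 6 higher, beside 21.2% and 21.8% of all tested genes. At 24 h 10 were lower and 6 higher, while 21.1% of all tested genes were lower and 4228 of 19224 higher. In either direction 43.0% of all tested genes were called at 8 h and 43.1% at 24 h. The 22 module genes called at 8 h were a larger share than that, and the 16 at 24 h a similar one. At both times the 6 higher genes were a smaller share of the module than the higher genes were of all tested genes. Without the second DMSO library the counts were 10 lower and 7 higher at 8 h, beside 18.8% and 20.3% of all tested genes, and 9 lower and 8 higher at 24 h, beside 19.2% and 21.0%. At 8 h the higher genes were 5 of the 11 quality control genes and DNAJB9, and at 24 h 4 of the 11, DNAJB9 and SEC61G. DERL2, a derlin, went from 20.7 and 16.7 CPM with DMSO to 42.0 and 39.5 at 8 h (1.12, SE 0.14, adjusted p = 1.33e-05, edgeR) and stood at 21.3 and 18.7 at 24 h. DERL1 was at 71.7 and 74.9 CPM with DMSO and at 121 and 115 at 8 h (0.69, SE 0.10, adjusted p = 6.5e-05, edgeR). DNAJB9 was at 84.3 and 77.8 CPM at 8 h and at 69.9 and 76.7 at 24 h, above both DMSO libraries each time (0.93 and, at 24 h, 0.78, SE 0.15, adjusted p = 0.000479, edgeR). SELENOS, a selenoprotein of the degradation complex, rose by 0.58 and 0.56, and UGGT1 by 0.40 and 0.36. EDEM2 (0.41) was called at 8 h, and EDEM1 (0.49) and SEC61G at 24 h. SEC61G, the small channel subunit, was at 82.3 and 74.2 CPM at 24 h against 43.7 and 51.1 (0.72, SE 0.13, adjusted p = 0.000256, edgeR).

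DERL3 was already low at 8 h, at 3.16 and 3.24 CPM (-2.12, SE 0.22, adjusted p = 2.72e-06, edgeR), and at 3.04 and 3.51 at 24 h (-2.08, adjusted p = 2.52e-06, edgeR). SDF2L1 was at 65.0 and 78.1 CPM at 8 h and at 76.2 and 78.7 at 24 h (-1.61, SE 0.24, adjusted p = 0.000272, edgeR), lower than at 72 h. P4HB was at 632 and 663 CPM at 8 h (-0.84, SE 0.11, adjusted p = 1.36e-05, edgeR) and at 780 and 775 at 24 h (-0.58, adjusted p = 0.000366, edgeR). SEC61B was at 40.3 and 38.3 CPM at 8 h (-0.74, SE 0.11, adjusted p = 6.96e-05, edgeR). HSPA5 was at 1710 and 1695 CPM at 8 h and at 2435 and 2376 at 24 h, inside or near the DMSO span, and was called at neither time (adjusted p = 0.598 and 0.246, edgeR). ATF6 was called lower at 8 h (168 and 162 CPM, -0.35, adjusted p = 0.023, edgeR) and not at 24 h (199 and 194 CPM), while ERN1 (115 and 98.5 CPM, then 115.5 and 114.1) and XBP1 (139 and 148 CPM, then 180.5 and 163) were called at neither time, with edgeR adjusted p of 0.322 and 0.572 in ERN1 and 0.21 and 0.71 in XBP1. Without the first and second 8 h library 10 and 14 genes were called, and without the second 24 h library 10. Removing a GC trend changed the 24 h split to 4 higher and 11 lower.

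Within the combination series, where no DMSO library is compared, 20 genes fell and 3 rose from 24 h to 72 h. Of all tested genes 45.9% were called (21.8% lower, 24.1% higher). The 24 h group has no vehicle control, so time with the drugs and time in culture cannot be told apart. All 3 sensors and factors fell, with 4 of 5 chaperones, 5 of 7 isomerases and oxidases, 2 of 6 cofactors, 4 of 11 quality control genes and 2 of 6 translocon and coat genes. HSPA5 fell by 1.55 (SE 0.23, adjusted p = 0.000182, edgeR), SEL1L, from 257 and 241 CPM, by 1.53 (SE 0.20, adjusted p = 3.47e-05, edgeR), and UGGT1, from 225 and 214 CPM to 113 and 119, by 0.92 (SE 0.11, adjusted p = 8.19e-06, edgeR). SDF2L1 (0.68), SYVN1 (0.36) and EDEM2 (0.35) rose, and none of these 3 was called with every library left out. Of the 20 falls 15 were called each time, and 15 genes were called without the first 72 h library. From 8 h to 24 h 6 genes rose and 4 fell. These 10 of 38 genes were a smaller share than the 35.8% of all tested genes that were called. DERL2 at -1.03 (SE 0.14, adjusted p = 3.91e-05, edgeR), SEC61G at 0.69 and EDEM2 at -0.68 were called with every library left out. The count of 10 became 5 and 4 without the first and second 8 h library. It became 6 and 4 without the first and second 24 h library.

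**Figure D3:**
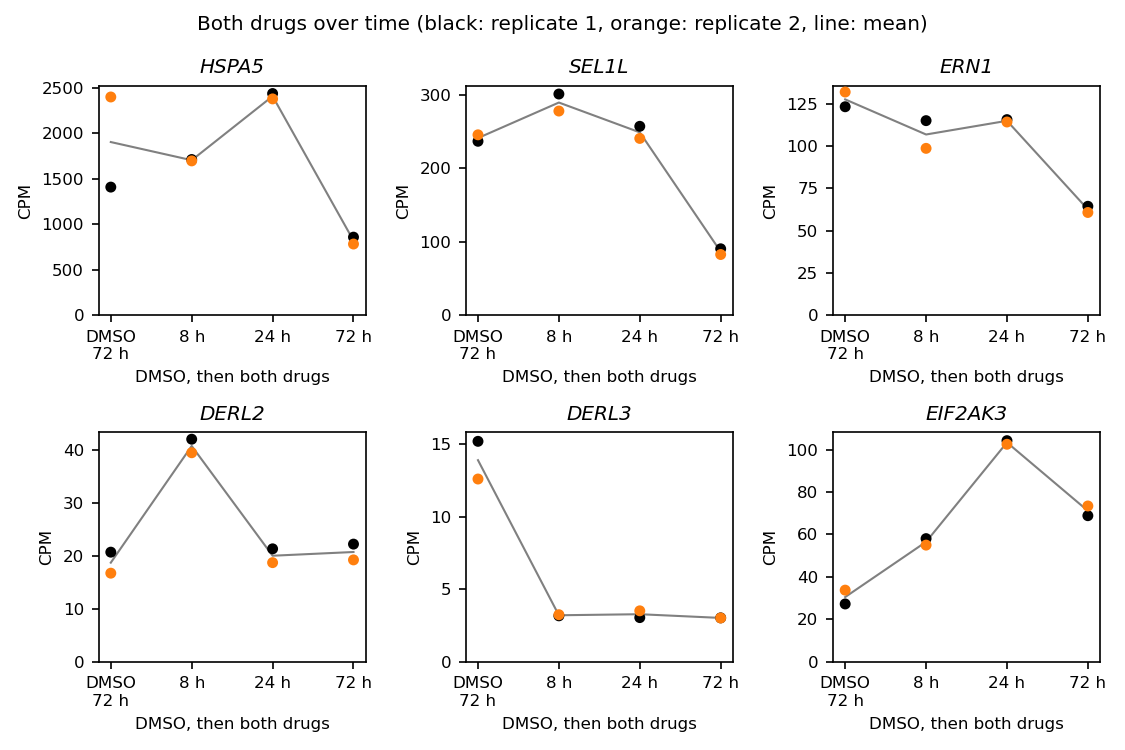
CPM of 6 genes (panels) in the DMSO libraries and in the combination libraries at 8, 24 and 72 h; points are single libraries (black and orange for replicates 1 and 2), the line joins the group means, and each axis starts at 0. HSPA5, SEL1L and ERN1 are lowest at 72 h, DERL2 peaks at 8 h near 40 CPM, DERL3 is near 3 CPM from 8 h on, and EIF2AK3, the PERK gene, peaks at 24 h near 103 CPM.

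A further 127 genes of the pathway were grouped in 8 lists. With the combination at 72 h 47 of them fell and 15 rose, against 17.3% and 19.2% of all tested genes. Falls made up 6 of 9 glycan trimming genes, 7 of 12 oligosaccharyltransferase genes, 10 of 20 further translocon, signal peptidase and signal recognition genes and 14 of 34 further folding enzymes. RPN2, a subunit of the oligosaccharyltransferase, went from 386 and 435 CPM to 245 and 251 (-0.73, SE 0.10, adjusted p = 4.16e-05, edgeR). ERP29, a lumenal folding factor, went from 207 and 217 CPM to 110 and 113 (-0.93, SE 0.11, adjusted p = 1.15e-05, edgeR). PRKCSH (-0.84), a glucosidase subunit, SSR3 (-0.73), SRP72 (-0.76) and the ATF6 relative ATF6B (-0.70) also fell. Among 18 further degradation genes 3 rose and 2 fell, with the ubiquitin ligase RNF139 at 0.93. Of 13 further export coat genes 2 fell and none rose (median -0.05). In the list of ATF6 relatives and factors that process or assist them, 4 of 10 fell and 3 rose (median -0.08).

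In the PERK arm 6 of the 11 genes rose and 2 fell at 72 h of the combination (median 0.41). Of all tested genes 19.2% rose and 17.3% fell. The DMSO pair was wide in several genes of this list. CHAC1 was at 53.2 and 6.76 CPM, SESN2 at 222 and 82.8, TRIB3 at 555 and 289, and ATF3 at 60.5 and 28.9. PPP1R15A went the other way, at 146 and 258 CPM. Counts of this list without a DMSO library are not given. EIF2AK3 was at 27.2 and 33.7 CPM with DMSO, 58.02 and 54.96 at 8 h, 104 and 102 at 24 h and 68.8 and 73.4 at 72 h (0.89, 1.76 and 1.22, the last with SE 0.13 and adjusted p = 2.06e-06, edgeR). All 6 combination libraries lay above both DMSO libraries. DDIT3, which encodes the stress factor CHOP, rose at all 3 times, to 132 and 127 CPM at 8 h, 159 and 166 at 24 h and 125.3 and 111.1 at 72 h, from 91.0 and 69.1 (0.56 at 72 h, adjusted p = 0.00581, edgeR), and ATF4 rose at 72 h by 0.41 (adjusted p = 0.0173, edgeR). PPP1R15B, a subunit of the eIF2 alpha phosphatase, rose by 0.95 at 72 h. ASNS, asparagine synthetase and a known ATF4 target, fell from 1389 and 1474 CPM to 348 and 336 (-2.07, SE 0.16, adjusted p = 1.31e-07, edgeR). In the other comparisons with DMSO the 127 genes gave 7 higher and 9 lower with GSK343 and 6 and 23 with X5050. They gave 39 and 36 at 8 h, and 42 and 21 at 24 h. Of all tested genes 9.12% were higher and 3.31% lower with GSK343, and 5.34% and 7.23% with X5050. At 8 h these shares were 21.8% and 21.2%. At 24 h 4228 of 19224 genes were higher and 21.1% lower.

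Across the 12 drug arm libraries the genes outside the module whose log2 CPM was most like that of HSPA5 by Pearson's r were TMED2 (0.96), a cargo receptor of early secretory vesicles, CEP57 (0.953), NUSAP1 (0.948), CFAP36 (0.944) and RTRAF (0.939). TMED2 lay between 225 CPM (72 h combination) and 408 (24 h combination). In the module r with HSPA5 ran from 0.958 (HSP90B1) and 0.942 (PDIA3) through 0.431 (CALR and HYOU1) to 0.034 (DERL3) and -0.397 (EDEM2). These libraries form only 6 groups and share treatments, so r describes the libraries and carries no test.

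In the excision arm the levels per length spanned from HSP90B1, CALR, CANX, P4HB and HSPA5 at the top to ERO1B, EDEM2 and DERL3 at the bottom. The mean in EV cells was 410 TPM for HSP90B1 (SD 231, n = 2), 337 for CALR (SD 126), 269 for CANX (SD 45.0), 229 for P4HB (SD 83.6), 189 for HSPA5 (SD 175), 6.90 for ERO1B (SD 5.24), 6.67 for EDEM2 (SD 1.23) and 5.78 for DERL3 (SD 2.67). Neighbours at the top and at the bottom did not differ beyond these spreads, which came mostly from 1 library. HYOU1 lay at 6.98 to 17.2 CPM here and at 319 to 860 CPM in the drug arm. TXNDC5 lay at 249 to 390 and at 2.2 to 6.69, and PDIA3 at 51.6 to 106 and at 227 to 527. The arms were quantified with different tools and their levels are not comparable, and the levels of these genes are uncertain.

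Libraries of the excision arm stood apart by replicate number. In the second EV library 36 of the 38 genes were above the first and 25 by more than 1.5-fold, against 12.3% of all tested genes. Genes more than 1.5-fold above the first library numbered 16 in the second S2KO library (15.4% of all tested genes), 8 in the second S1KO library (7.73%) and 0 in the second DKO library (0.705%). HSPA5 was at 368 and 1874 CPM in the EV libraries, 381 and 572 in those of S1KO, 480 and 1104 in those of S2KO, and 330 and 335 in those of DKO. ERN1 was at 26.0 and 122, 23.4 and 79.7, 25.3 and 124, and 23.1 and 19.8 CPM in the same order. SEL1L was at 63.7 and 271, 59.98 and 170, 50.3 and 222, and 51.7 and 53.7 CPM in the same order. The second libraries of EV, S1KO and S2KO were thus high in all 3 genes, and the 2 DKO libraries sat with the first libraries of the other groups. The module as a whole did not rise in every second library. Of the 38 genes 31 were above the first library in S2KO (median log2 difference 0.49) and 17 in S1KO (median -0.03). The median of all tested genes was 0.04 in S2KO and 0.02 in S1KO. HSPA8, the cytosolic HSP70, ran the other way, at 3323 and 863 CPM in EV and at 3671 and 4364 in DKO. The 11 erythroid markers summed to 6441 and 2815 CPM (EV), 16820 and 9410 (S1KO), 12890 and 6025 (S2KO), and 17170 and 20030 (DKO). The 4 fibroblast markers, none at 0 in all libraries, summed to 1.26 to 9.18 CPM in EV, S1KO and S2KO and to 129 and 108 in DKO, almost all of it COL1A2, which reached 124.7 CPM while COL1A1, DCN and PDGFRB stayed at or below 3.53, 1.03 and 0.291 in every library of the arm. What part these differences have in the results below was not tested.

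No gene of the module was called in S1KO or S2KO against EV, where edgeR called 3.67% of all tested genes in S1KO (2.44% higher, 1.23% lower) and 2.01% in S2KO (1.45% higher, 0.554% lower). At an unadjusted p under 0.05 there were 4 lower and 0 higher in S1KO and 3 lower and 0 higher in S2KO, and DESeq2 called 0 and 1. The median of the module was -0.50 in S1KO and -0.30 in S2KO. Without the first EV library edgeR called 3 and 1. HSPA5 differed from EV by -1.23 (SE 0.73) in S1KO and -0.50 (SE 0.72) in S2KO, with adjusted p of 0.521 and 0.935. ATF6, at 129 and 282 CPM (EV), 135 and 204 (S1KO) and 131 and 240 (S2KO), and XBP1, at 126 and 185, 140 and 195, and 117 and 192, overlapped between the groups. In S1KO the changes were -0.28 (ATF6), -0.52 (ERN1) and 0.11 (XBP1), and in S2KO -0.14, 0.01 and -0.01, with edgeR adjusted p of at least 0.859.

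In DKO against EV 2 genes fell and none rose, while 8.76% of all tested genes were called (3.35% lower, 5.41% higher). ERO1A (ENSG00000197930) went from 118 and 149 CPM to 71.4 and 65.6 (-0.96, SE 0.16, adjusted p = 0.0145, edgeR). CANX went from 1180 and 1672 CPM to 708 and 744 (-0.97, SE 0.21, adjusted p = 0.0385, edgeR). Both DKO libraries were below both EV libraries in these 2 genes. Neither was called without the second EV library (-0.79 and -0.71, adjusted p = 0.0577 and 0.139, edgeR) or without either DKO library, when 0 genes were called, and 12 were called without the first EV library. The nearest uncalled gene was CRELD2 (-1.0, SE 0.31, adjusted p = 0.10, edgeR). HSPA5 gave -1.76 (SE 0.74, adjusted p = 0.208), ERN1 -1.78 (SE 0.99, adjusted p = 0.334), ATF6 -0.74 (SE 0.44, adjusted p = 0.357) and XBP1 -0.70 (SE 0.30, adjusted p = 0.222, edgeR).

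With the second libraries of EV, S1KO and S2KO all left out, a setting chosen after seeing the data, the module median in DKO was -0.13 and HSPA5 stood at -0.15 (adjusted p = 0.112, edgeR). In that fit 15 genes were lower and 6 higher, beside 17.9% and 19.1% of all tested genes, and the spread rests on the 2 DKO libraries alone, which were close to each other. ERO1A was then at -0.79 and CANX at -0.71.

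XBP1 transcripts gave a second view of the same libraries. IRE1 cuts a 26-base run from XBP1 mRNA, which shifts the reading frame and yields the active transcription factor. The run (in capitals) lies at positions 567 to 592 of ENST00000216037, an unspliced GENCODE 29 transcript on chromosome 22, inside its coding sequence. It is missing from XBP1-202 (ENST00000344347), in which the flanks (lower case) are joined, and repeated letters at its ends allow 6 neighbouring placements of the run.
XBP1 unspliced: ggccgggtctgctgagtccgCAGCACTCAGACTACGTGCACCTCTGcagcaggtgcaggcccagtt
GENCODE 29 has a second transcript with joined flanks, XBP1-207 (ENST00000611155), which was not analysed here, and 4 transcripts that hold the run, of which the printed one is the most abundant. The share of XBP1 TPM assigned to XBP1-202 was 6.08% and 17.5% (EV), 5.42% and 16.1% (S1KO), 7.43% and 15.9% (S2KO), and 6.63% and 5.47% (DKO). It was high in the second libraries of EV, S1KO and S2KO, where HSPA5, ERN1 and SEL1L were high too, and low in the other 5 libraries. The printed unspliced transcript held 72.8% to 86.7%. XBP1-202 also ends earlier at its 3′ side (1131 against 1850 bases), so its share measures neither the splice alone nor all spliced mRNA. With 2 libraries a group an exact permutation test cannot reach 0.05, so the shares carry no test.

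**Figure D4:**
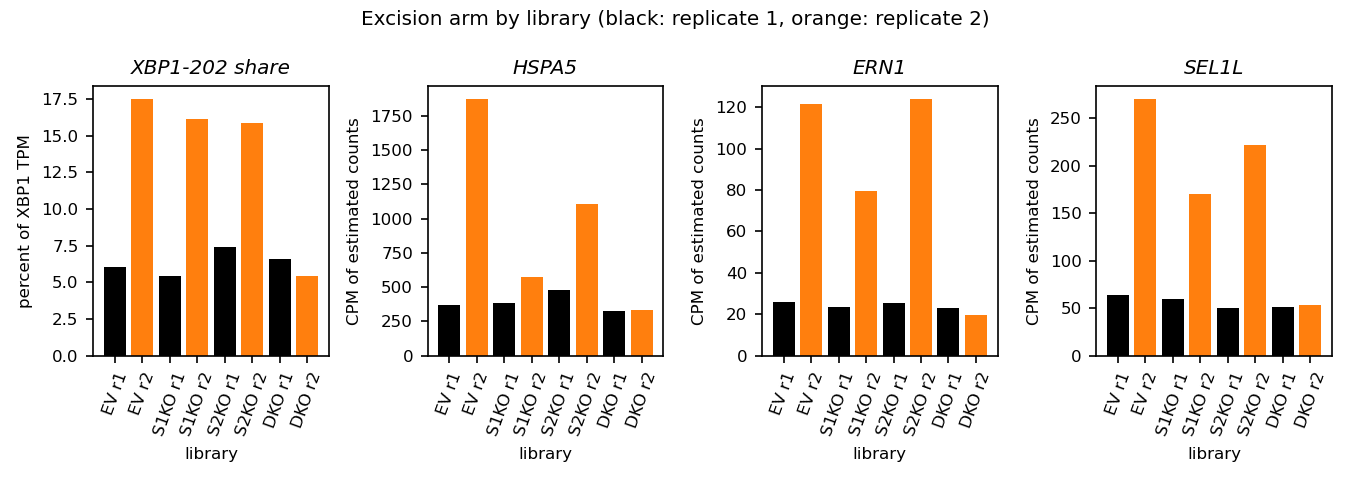
Share of XBP1 TPM assigned to XBP1-202 (percent) and CPM of HSPA5, ERN1 and SEL1L in each of the 8 excision arm libraries, as bars from 0, black for replicate 1 and orange for replicate 2. The orange bars of EV, S1KO and S2KO exceed the black ones in every panel, and the share in both DKO libraries stays below 7%.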

How the data were processed

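RNA-seq of 20 K562 libraries was analysed in 2 arms. Per the submitters' processing notes, reads were handled with Trimmomatic 0.38, STAR 2.7.3a and kallisto 0.44.0 on hg19; the annotation release is not given in the sources used here. For the drug libraries the authors deposited STAR counts per gene, of which the reverse-strand column was used (8.01 to 9.77 times the forward one), and 15.3% to 21.6% of its total were reads in no gene, left out. The excision arm was deposited by the authors as estimated counts and TPM per transcript, summed per gene and rounded for tests; 84.7% of its identifiers, with 87.8% to 90.4% of the counts, matched GENCODE 29. That release is on GRCh38 and served for names, the transcript map and GC content.

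Each arm was fitted alone in edgeR 4.0.16 (R 4.3.3) with 1 mean per group, filterByExpr, TMM and the robust quasi-likelihood test, with Benjamini-Hochberg adjustment over all tested genes. The SE is the log2 change over the square root of F. Where a library is left out, the lone one is assumed to vary like the others. In simulated data of the 72 h combination against DMSO (19224 genes) the test recovered 67 of 100 genes simulated at 2-fold and 95 of 100 at 4-fold; for DKO against EV (21284 genes) it recovered 4 and 65. Every replicate pair differed by more than counting error (chi-square over its degrees of freedom 8.12 to 41.6 in the drug arm, and 225 to 389 in EV, S1KO and S2KO against 17.2 in DKO). The design text calls the pairs biological replicates without naming cultures, so p-values measure the spread between these libraries.

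The members and lists were chosen with earlier results of these data known. Full statistics go to the called members with the lowest p (at most 8 in GSK343, X5050, the 72 h combination and DKO, at most 5 in the others), to HSPA5, ATF6, ERN1 and XBP1, and to up to 3 called genes per pathway list. ATF4, DDIT3 and EIF2AK3 are given whether called or not. DESeq2 1.42.0, other size factors, unstranded counts, GC correction, a replicate block and left-out libraries were tried.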

Additional observations from a re-analysis of the deposited data

Results flagged for a closer look

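In 7 of 38 members the effect of X5050 at 72 h differed with and without GSK343. The test was an edgeR interaction over the 8 libraries of DMSO, GSK343, X5050 and both drugs, with spread estimated from all 12 drug arm libraries. Of all tested genes 18.8% were called (9.75% positive, 9.04% negative), a share close to that of the members. The log2 differences, as the effect with GSK343 minus the effect without it, were 1.28 in CALR, 1.16 in SDF2L1, 0.81 in SYVN1, 0.57 in DNAJB11 and 0.54 in SEC61B, and -1.12 in SEL1L and -0.58 in HYOU1. Among these 7 genes CALR and SDF2L1 had the widest DMSO pairs (857 and 1762 CPM, 159 and 315 CPM), and DMSO enters the difference directly. SYVN1 was called with every library left out, and the other 6 were not. The split was 4 positive and 4 negative without the second DMSO library, and 1 and 4 without the first X5050 library.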

How the results depend on the processing

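Called members depended on the setting as follows (edgeR unless named). With GSK343 (10 called) removing a GC trend gave 17 and fitting only the groups compared gave 1; with X5050 (21) only the groups compared gave 6; for 24 h against 8 h (10) only the groups compared gave 20; for X5050 against GSK343 (12) the GC trend gave 7; for the interaction (7) only the groups compared gave 2; in S2KO (0) DESeq2 gave 1. In DKO (2) DESeq2 gave 8, the GC trend 5, only the groups compared 1, and the replicate block 6 (1 higher, 5 lower); in no other comparison did the block move the count by over 1.5 times. Replicate numbers are not taken to pair libraries. The log2 difference of the second library from the first was correlated between groups over the tested genes. That r was 0.456 to 0.583 among EV, S1KO and S2KO, -0.052 to -0.074 between DKO and these, and -0.049 to 0.212 in the drug arm. With only the first libraries of EV, S1KO and S2KO (added after seeing the data) counts were 5 (S1KO: 3 higher and 2 lower, beside 11.6% and 9.83% of all tested genes), 7 (S2KO: 1 and 6, beside 7.61% and 5.77%) and 21 (DKO: 6 and 15, beside 19.1% and 17.9%), and HSPA5 in S2KO turned to 0.40. Leaving out 1 library at a time gave 1 to 17 (GSK343), 6 to 25 (X5050), 10 to 28 (8 h), 10 to 23 (24 h), 20 to 29 (72 h), 4 to 6 (24 h against 8 h), 15 to 16 (72 h against 24 h), 12 to 15 (72 h against GSK343), 3 to 11 (72 h against X5050), 2 to 11 (X5050 against GSK343), 1 to 13 (interaction), 0 to 3 (S1KO), 0 to 1 (S2KO) and 0 to 12 (DKO). GC trend removal moved the median of all genes to -0.18 (GSK343), -0.16 (72 h, and 72 h against X5050), -0.11 (72 h against 24 h, and S2KO), -0.14 (DKO) and 0.21 (X5050 against GSK343); relative to it the module median was -0.21 with GSK343 and -0.64 at 72 h. Of 751 alternative values of named members 685 kept direction and call, 54 lost the call, 11 gained it and 1 turned, where a turn counts only if called. The causes were not tested. Both arms have 2 libraries a group. In simulated data 4 of 100 2-fold changes were recovered in DKO against EV, and 67 in the 72 h combination against DMSO. The biological coefficient of variation, the spread between replicates, was 0.323 in the excision arm and 0.129 in the drug arm.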
